A study of Mus musculus with 6 samples.

Results

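In pure cultures of PA6 stromal cells, 63 probes for 62 gene names were detected in medium without growth factors and were no longer detected after 3 h with FGF2. The members were chosen by their detection p-values, which compare the brightness of a probe with that of the negative control beads on the same array. On the -GFs arrays a member had detection p-values under 0.01, and on the FGF2 arrays of at least 0.05, each time on both. The array carried 45281 probes, of which 12213 met the first condition, so the members were 0.516% of those that could be lost. The same 2 conditions were then read on the BMP4 arrays, which had no part in the choice.

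PA6 is a murine stromal cell line that served the study as a feeder layer for embryonic stem cells. Confluent monolayers in 6-well plates were kept for 3 h in serum-free medium with no addition (-GFs), with 20 ng/ml of recombinant FGF2 or with 10 ng/ml of recombinant BMP4, the BMP4 dose being that of the sample labels. Each group had 2 replicates, a replicate being made up of 1 well of each group, and their total RNA was measured on 6 BeadChip arrays (Illumina MouseWG-6 v2.0). All cells were of a single line, and the -GFs cells too were in serum-free medium, whose supplements the labels do not list (the study's medium for co-cultures held insulin). The 10 stromal marker genes looked up (collagens, Vim, Dcn, Cxcl12 and others) were all detected in these cells, against 3 of 8 adipocyte, 3 of 7 macrophage, 2 of 7 endothelial and 0 of 7 neuronal markers. Their summed intensity was 128945 to 156608 in -GFs medium, 117660 to 118806 with FGF2 and 122482 to 134792 with BMP4 for the stromal list.

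FGF2 binds receptor tyrosine kinases at the cell surface and switches on the Ras, MAP kinase (ERK) and PI3 kinase cascades. Within hours this brings up early response genes and feedback inhibitors, and it also lowers many transcripts that resting or starved cells keep high, among them targets of FOXO transcription factors, which PI3 kinase signalling drives out of the nucleus. BMP4 acts through serine/threonine kinase receptors and SMAD proteins, and the ID genes are its classical direct targets. A transcript can leave the range of detection on an array by a small fall from a low level as well as by a large one. For bulk RNA, fewer cells that express a gene and less RNA per cell cannot be told apart.

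The members lay close above the limit of detection in -GFs medium. Intensities are given as the authors deposited them, in arbitrary units and before any normalization between arrays. The 63 probes ranged from 234.5 to 467.2 (median 277.6) on -GFs replicate 1 and from 230.8 to 420.0 (median 254.4) on -GFs replicate 2. With FGF2 they ranged from 141.1 to 190.3 (median 172.5) and from 136.3 to 192.3 (median 176.8). The lowest intensity that counted as detected was 180.1 to 200.9 depending on the array, and the median over all probes of an array was 153.4 to 168.1, so with FGF2 the members sat among the undetected majority of the array.

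**Figure D1:**
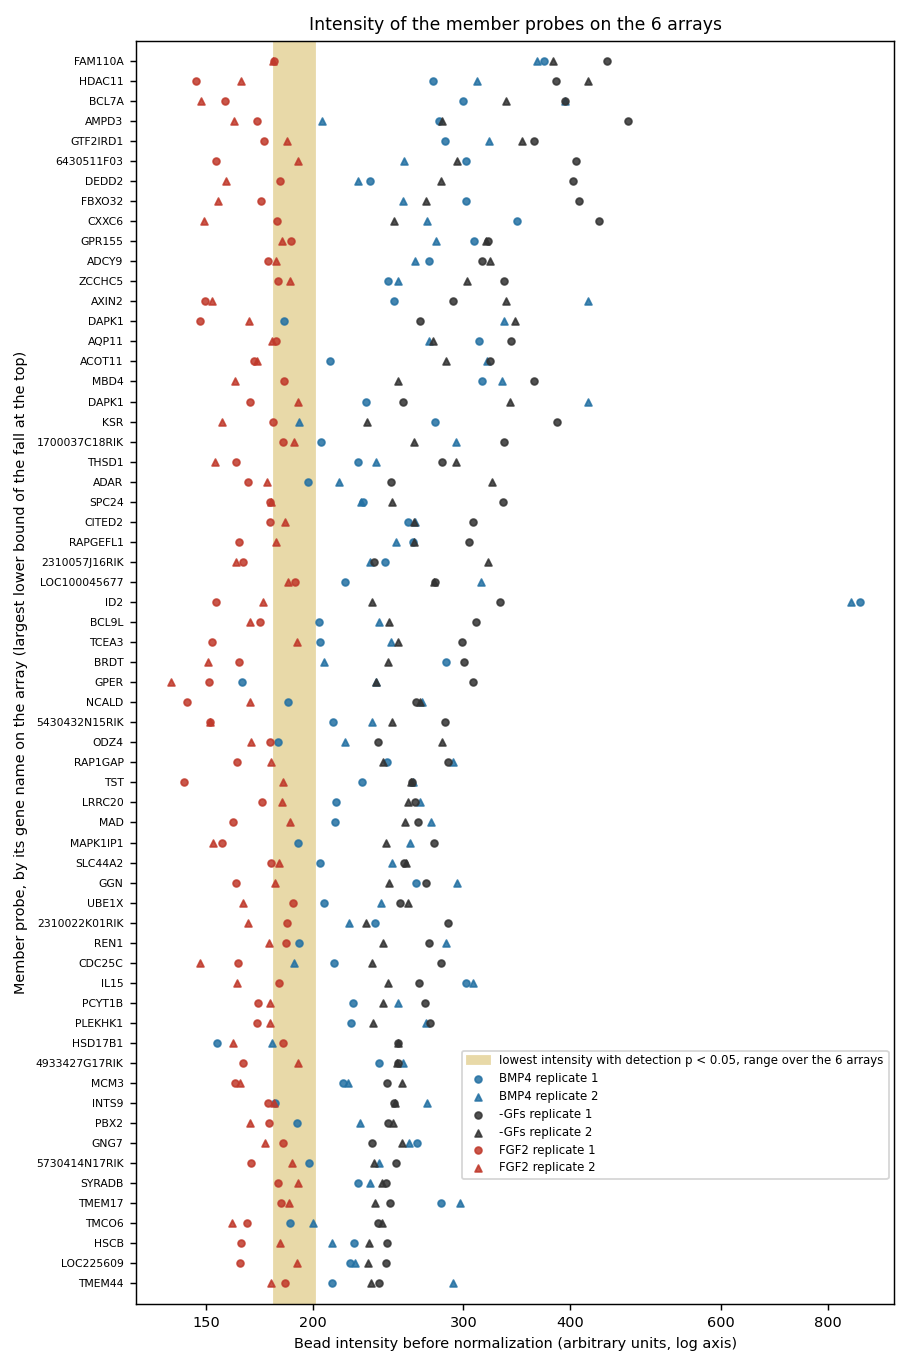
Bead intensity before normalization (arbitrary units, log axis) of 62 of the 63 member probes on the 6 arrays, with colour for the group and shape for the replicate; the band is the range, over arrays, of the lowest intensity with a detection p under 0.05. The FGF2 points lie within or left of the band by the choice of the members, the BMP4 points lie mostly with the -GFs points, and ID2 stands apart with BMP4 intensities of 873.0 and 852.9.

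Since a member has no measured level with FGF2, its fall is given as a lower limit, the mean of the -GFs arrays over the limit of detection of the FGF2 arrays (after cubic spline normalization). These limits ran from at least 1.21-fold to at least 2.04-fold, with a median of 1.36-fold. The rule asked for high values on these same -GFs arrays, and the limits carry no error. They hold for the arrays measured and, through that choice, may overstate the fall in the cells, here and where they are given by gene. No background was subtracted, and with neqc, which corrects for background, the limits were larger. In 18 members the limit was over 1.5-fold and in 2 it was over 2-fold. As fitted values, which include the signal under the limit of detection, the log2 differences of the members ran from -1.32 to -0.34 with a median of -0.64, where the median over all 16111 probes retained was -0.01. With neqc the median of the members was -1.5. limma called 5 of the 63 members lower (log2 change beyond -1 and adjusted p under 0.1), where 1.12% of all probes tested were called lower. At any size of change, 37 members had an adjusted p under 0.1 (5.05% of all probes tested). In the fit with a replicate block it was 63 (18.9% of all probes tested). These counts come from the contrast that chose the members and are a description of them.

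The 5 members called lower were FAM110A, HDAC11, BCL7A, AMPD3 and AXIN2. With either of the FGF2 arrays left out none of them was called, at log2 changes of -1.40 to -1.01 and adjusted p-values of 0.108 to 0.315 in limma, so each change stayed beyond -1. AMPD3 was also not called without -GFs replicate 1 (-0.84) and AXIN2 without -GFs replicate 2 (-0.80). FAM110A, a protein of the centrosome and spindle poles, gave 441.5 and 381.6 in -GFs medium, 180.2 and 179.4 with FGF2 and 372.5 and 365.4 with BMP4. It had the largest limit of all members, at least 2.04-fold lower with FGF2, and its BMP4 and -GFs values differed by -0.06 on the log2 scale (SE 0.14, 2 arrays each). AMPD3, an AMP deaminase of purine metabolism, gave 467.2 and 282.8 in -GFs medium, 172.0 and 161.6 with FGF2 and 280.9 and 205.0 with BMP4, at least 1.81-fold lower with FGF2. The -GFs replicates of AMPD3 were far apart, and in each replicate the BMP4 value was below the -GFs value.

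Among the probes given a role, regulators of transcription and chromatin were the largest group, with 14 of the 63 probes. The shares of the roles over all probes were not counted, so the sizes of these groups only describe the members. The roles were assigned after the values had been seen. All 14 were detected on both BMP4 arrays, and their limits of the fall with FGF2 ran from at least 1.26-fold to at least 2.01-fold. HDAC11, a class IV histone deacetylase, gave 384.8 and 420.0 in -GFs medium, 146.1 and 164.7 with FGF2 and 276.6 and 311.5 with BMP4, at least 2.01-fold lower with FGF2. The BMP4 values lay between those of the other groups on both arrays. BCL7A, a subunit of the SWI/SNF chromatin remodelling complex, gave 394.8 and 336.1, then 157.7 and 147.9 with FGF2 and 300.0 and 394.5 with BMP4, at least 1.82-fold lower with FGF2. Its BMP4 and -GFs arrays overlapped.

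GTF2IRD1, a relative of the general transcription factor TFII-I, gave 362.8 and 351.4 in -GFs medium, 175.5 and 186.3 with FGF2 and 285.1 and 321.5 with BMP4, a fall of at least 1.79-fold. Enzymes and readers of DNA methylation were also in the set. CXXC6, now named Tet1, oxidises 5-methylcytosine, and its probe gave 431.8 and 249.0, then 181.5 and 149.3 with FGF2 and 346.3 and 271.7 with BMP4. MBD4, a DNA glycosylase that binds methylated CpG sites, gave 362.5 and 251.2, then 184.9 and 161.9 with FGF2 and 315.2 and 333.2 with BMP4. The limits of CXXC6 and MBD4 were 1.63-fold and 1.51-fold, and for both the -GFs replicates were further apart than the BMP4 replicates. The other members of this role were MAD (now Mxd1, a MAX partner that opposes MYC), TCEA3 (an elongation factor of RNA polymerase II), PBX2 (a homeodomain protein), INTS9 (a subunit of the Integrator complex), ADAR (which edits adenosine in double-stranded RNA), BRDT (a bromodomain protein known from the testis), 5430432N15RIK (now Mamstr, a coactivator of MEF2) and, described below, CITED2 and ID2.

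ID2, an inhibitor of basic helix-loop-helix factors, was the member with the largest log2 difference between BMP4 and -GFs medium, and that difference was positive. Its probe gave 330.8 and 234.3 in -GFs medium, 153.9 and 174.9 with FGF2 and 873.0 and 852.9 with BMP4. The 3 groups did not overlap, and the -GFs values fell between those of FGF2 and BMP4. The fall with FGF2 was at least 1.39-fold. BMP4 against -GFs differed by 1.72 on the log2 scale (SE 0.16), with an adjusted p of 0.133 in limma and of 1.82e-06 with a replicate block, and from 0.135 to 0.996 under the other alternatives tried. A separate probe of the same gene, listed under the older name IDB2, gave 415.4 and 222.5 in -GFs medium, 185.9 and 181.4 with FGF2 and 2648.6 and 639.1 with BMP4. It was undetected on both FGF2 arrays too, and missed the rule on -GFs replicate 2.

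Signalling proteins made up the next groups. AXIN2, a scaffold of the complex that degrades β-catenin and itself a feedback target of the WNT pathway, gave 291.6 and 336.4 in -GFs medium, 149.4 and 152.4 with FGF2 and 248.8 and 419.5 with BMP4. The fall with FGF2 was at least 1.58-fold, and the BMP4 replicates lay on either side of the -GFs values. BCL9L, a coactivator of β-catenin, had a limit of 1.39-fold. Its member probe gave 310.6 and 245.4, then 173.2 and 168.9 with FGF2 and 203.0 and 238.8 with BMP4.

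In 9 probes the gene acts in G protein, cyclic AMP or Ras and Rap signalling, with limits from 1.25-fold to 1.61-fold. ADCY9, an adenylyl cyclase, gave 315.7 and 322.2 in -GFs medium, 177.4 and 180.9 with FGF2 and 273.3 and 263.5 with BMP4. Its replicates were close together before normalization, but after it the -GFs log2 values were 8.13 and 8.41. GPR155, an orphan receptor, gave 320.2 and 318.8, then 188.4 and 184.1 with FGF2 and 308.9 and 278.4 with BMP4. ADCY9 and GPR155 had the largest limits of this role, both at least 1.61-fold. KSR (now Ksr1), a scaffold for Raf, MEK and ERK, gave 386.3 and 231.2 in -GFs medium, 179.8 and 156.5 with FGF2 and 277.5 and 192.5 with BMP4, and replicate 2 was the lower one throughout. The others were GPER (a membrane oestrogen receptor), GNG7 (a G protein subunit), RAP1GAP (which inactivates Rap1), RAPGEFL1, NCALD (a calcium sensor) and MAPK1IP1.

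Genes of cell death and protein breakdown gave 5 probes. DAPK1, a calmodulin-regulated kinase that promotes cell death, was the gene name with more than 1 member probe. A DAPK1 probe gave 266.5 and 344.7 in -GFs medium, 147.6 and 168.5 with FGF2 and 184.9 and 334.7 with BMP4. The other gave 254.8 and 340.5, then 168.6 and 192.0 with FGF2 and 230.7 and 419.5 with BMP4. In both probes replicate 2 was the higher within each group, and the limits were 1.54-fold and 1.51-fold. DEDD2, which carries a death effector domain, gave 403.0 and 282.2 in -GFs medium, 183.0 and 158.4 with FGF2 and 233.0 and 225.9 with BMP4, a fall of at least 1.68-fold with FGF2.

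FBXO32 (atrogin-1), a ubiquitin ligase subunit of muscle wasting and a known FOXO target, gave 409.1 and 271.4 in -GFs medium, 173.8 and 154.9 with FGF2 and 301.9 and 254.7 with BMP4, a fall of at least 1.66-fold with FGF2. CITED2, a coregulator that binds CBP and p300 and was placed on the same list of FOXO targets, gave 308.0 and 262.7, then 178.2 and 185.5 with FGF2 and 258.2 and 263.3 with BMP4, a fall of at least 1.43-fold. For both genes the BMP4 means were within 0.18 log2 units of -GFs. UBE1X (now Uba1), the main enzyme that activates ubiquitin, completed this role with a limit of 1.31-fold.

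Besides FAM110A, the members that act in DNA replication and mitosis included MCM3 (a subunit of the replicative helicase), CDC25C (a phosphatase that activates CDK1), SPC24 (a kinetochore protein) and 2310022K01RIK (now Haus5, of the augmin complex). Metabolism and transport gave 8 probes, with limits from 1.22-fold to 1.81-fold: AMPD3, ACOT11 and AQP11 with the values given here, and PCYT1B, HSD17B1, TST, HSCB and SLC44A2. AQP11, an aquaporin of intracellular membranes, gave 340.8 and 276.5 in -GFs medium, 181.2 and 178.9 with FGF2 and 312.7 and 273.6 with BMP4, a fall of at least 1.54-fold. ACOT11, an acyl-CoA thioesterase, gave 321.8 and 286.3, then 170.5 and 172.2 with FGF2 and 209.4 and 319.7 with BMP4. Secreted and cell surface proteins were IL15 (a cytokine of lymphocytes made by stromal cells), REN1 (renin, whose probe may also bind a near-identical paralogue), THSD1 and ODZ4 (now Tenm4, a teneurin), with limits from 1.29-fold to 1.46-fold.

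The other 15 probes had limits from 1.21-fold to 1.72-fold. The largest were those of 6430511F03 (now Nhsl2), with 406.2 and 294.9 in -GFs medium, 154.2 and 192.3 with FGF2 and 302.4 and 255.5 with BMP4, and of ZCCHC5 (now Rtl3), with 334.7 and 302.6, then 182.2 and 187.8 with FGF2 and 244.8 and 251.8 with BMP4. The rest were 1700037C18RIK, 2310057J16RIK (now Camsap3), 4933427G17RIK (now Mfsd13b), 5730414N17RIK, GGN, LOC100045677, LOC225609, LRRC20, PLEKHK1 (now Rtkn2), SYRADB (now Stradb), TMCO6, TMEM17 and TMEM44. Of the 62 gene names, 59 had an entry in RefSeq.

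Membership changed with small shifts at either threshold. Just inside the -GFs threshold were 7 members with a detection p of 0.00962 on -GFs replicate 2, namely LOC225609, KSR, ID2, 2310022K01RIK, CDC25C, HSCB and TMEM44. Just outside it were FOXA1, RAB3IL1 and DCN, each at 0.01068 on that array. The DCN probe concerned gave 490.4 and 227.7 in -GFs medium and 167.5 and 173.1 with FGF2, while another probe of this matrix gene was bright on all 6 arrays (38026.8 to 48533.3). Just inside the FGF2 threshold were LOC100045677 (0.05021) and 4 members at 0.05128, namely 6430511F03, SYRADB, 4933427G17RIK and a DAPK1 probe. Just outside it were SI and WNK4 (both 0.04915 on FGF2 replicate 1) and D130017N08RIK (0.04808 on FGF2 replicate 2). WNK4 went from 329.2 and 465.4 to 190.7 and 170.6, so a non-member could have fallen by as much as a member.

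With BMP4 nearly all members stayed detected. At a detection p under 0.05, 58 of the 63 (92.1%) were detected on both BMP4 arrays, 4 on 1 array and 1 on neither. Of all 12213 probes with a p under 0.01 on both -GFs arrays, 12151 were detected on both BMP4 arrays and 4 on neither (0.0328%). HSD17B1, which converts oestrone to oestradiol, was the member lost with both factors. It gave 251.5 and 251.2 in -GFs medium, 184.5 and 161.4 with FGF2 and 154.4 and 179.2 with BMP4. The 4 members detected on 1 BMP4 array were GPER (165.3 and 237.1), KSR (277.5 and 192.5), CDC25C (211.7 and 190.1) and TMCO6 (188.0 and 199.8). At the stricter p under 0.01 that the rule asked of -GFs, 23 members were detected on both BMP4 arrays, 27 on 1 and 13 on neither (36.5%, 42.9% and 20.6%), against 94.3%, 4.56% and 1.17% of the 12213 probes. These shares are no measure of a BMP4 effect, since the members lay near the limit and the 12213 probes were not matched to them in brightness. The limit at that p was 257.6 on BMP4 replicate 2 and 230.2 on -GFs replicate 2, where the members had medians of 255.5 and 254.4.

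By level, the members were a little lower with BMP4 than in -GFs medium. The median log2 difference was -0.12 (range -0.56 to 1.72), against 0.00 over all probes. The -GFs side of this contrast took part in the choice, which asked for a high value there, so the median is no independent reading of BMP4. The BMP4 mean lay between the FGF2 and -GFs means in 49 members, above -GFs in 13 and below FGF2 in 1 (HSD17B1). limma called 0 members lower with BMP4 (0% of all probes tested) and 0 higher (0.00621% of all probes tested). In the fit with a replicate block ID2 passed as higher, at the adjusted p given above. At an unadjusted p under 0.05 there were 2 lower, HSD17B1 (-0.56, SE 0.16) and DEDD2 (-0.48, SE 0.17), where 1.02% of all probes tested were lower.

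After normalization, both BMP4 arrays were below both -GFs arrays for 18 members (12.5% of all probes tested). They were above them for 5 (11.1% of all probes tested), namely ID2, MBD4, GGN, IL15 and TMEM17. The intensities of MBD4 and GGN before normalization overlapped between these groups. IL15 gave 265.9 and 244.5 in -GFs medium, 182.4 and 163.1 with FGF2 and 302.0 and 308.0 with BMP4, and TMEM17 gave 246.2 and 236.1, then 183.7 and 187.7 and 282.7 and 297.4. The differences of IL15 and TMEM17 from -GFs were 0.31 and 0.32 log2 units and did not pass the test. Another probe of each gene, detected on both -GFs and both BMP4 arrays, did not show the difference. Its log2 change with BMP4 was 0.02 for IL15 (SE 0.23) and -0.02 for TMEM17 (SE 0.14).

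**Figure D2:**
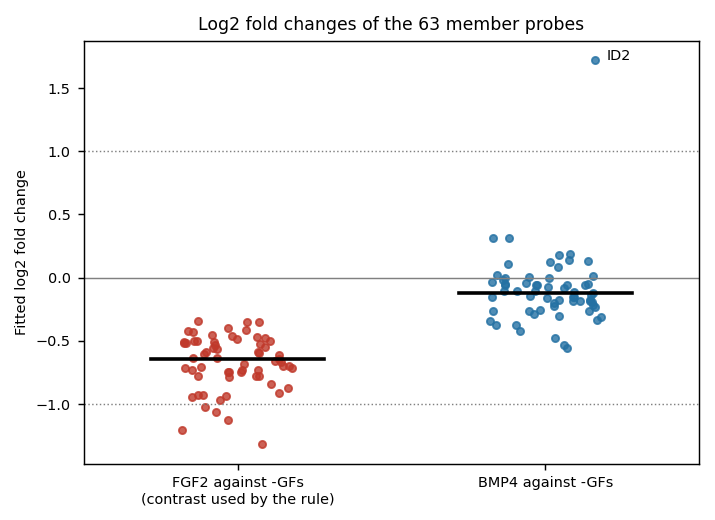
Fitted log2 fold change of the 63 member probes for FGF2 against -GFs, the contrast that chose them, and for BMP4 against -GFs (1 point per probe, horizontal bar at the median, dotted lines at a change of 1 log2 unit either way). The medians are -0.64 and -0.12, and ID2 is the single member beyond 1 log2 unit with BMP4 (1.72).

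FGF2 and BMP4 arrays were also set against each other, with the FGF2 arrays having taken part in the choice. The members were lower with FGF2 by a median of -0.51 log2 units. After normalization, both FGF2 arrays were below both BMP4 arrays for 62 of the 63 (27.8% of all probes tested). limma called 4 members lower with FGF2 than with BMP4 (0.888% of all probes tested). These were ID2 (-2.43), BCL7A (-1.20), AXIN2 (-1.13) and FAM110A (-1.06). By the detection rule itself, 23 of the members (36.5%) were also lost between BMP4 and FGF2. These are the 23 with a p under 0.01 on both BMP4 arrays given above, since all members were undetected with FGF2 by the rule. They were 69.7% of the 33 probes that the rule found between these groups, and both sets share the condition on the FGF2 arrays.

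The number of members can be read against the same rule applied to every ordered pair of groups. From -GFs to BMP4 it found 4 probes of 12213, against 63 to FGF2. In the reverse direction, 56 of 12354 probes detected with FGF2 were undetected in -GFs medium, so probes lost and probes gained with FGF2 were similar in number. From FGF2 to BMP4 it found 62 and from BMP4 to -GFs 0 of 11798. BMP4 replicate 2 had the highest intensity for a p under 0.01 (257.6, against 212.2 to 231.4 on the other arrays). The part of this limit in the counts was not tested.

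**Figure D3:**
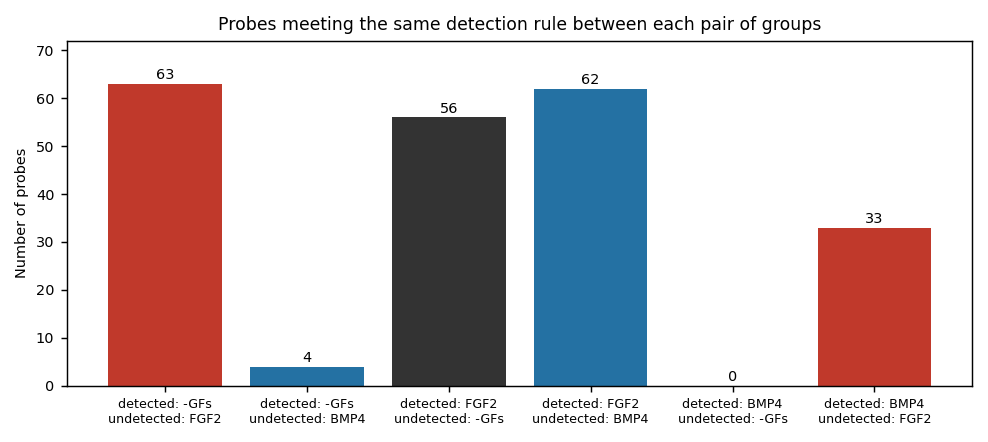
Number of probes that were detected at p under 0.01 on both arrays of 1 group and undetected (p of at least 0.05) on both arrays of another, for the 6 ordered pairs of groups, coloured by the group in which they were undetected. The rule found 63 probes from -GFs to FGF2, 4 from -GFs to BMP4 and 0 from BMP4 to -GFs.

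Because the rule picks low and high values on the arrays it reads, it was also applied to the arrays of 1 replicate number and read on the other. Applied to replicate 1 alone it chose 485 probes, of which 63 met it in replicate 2 as well. In replicate 2, which had no part in that choice, 365 of the 485 (75.3%) were lower with FGF2, with a median of -0.20 log2 units, against 53.6% and -0.04 for all 13989 probes detected at that p on -GFs replicate 1. Applied to replicate 2 alone it chose 218, of which 187 (85.8%) were lower in replicate 1, with a median of -0.30, against 54.1% and -0.04 for all. The same procedure with BMP4 chose 236 and 72 probes, of which 53.8% and 69.4% were lower in the other replicate (medians -0.02 and -0.11), and 4 met the rule in both replicates. All of these medians were smaller in size than the -0.64 over the members. They cover wider sets of probes, chosen on 1 replicate, so the difference does not measure the part of the choice in the -0.64.

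Other probes of the same genes gave a reading on different oligonucleotides, though on the same arrays. Of the member genes, 44 had 80 other probes, and 32 of these (26 genes) were detected on both -GFs arrays. With FGF2 25 of the 32 stayed detected on both arrays. By the fit 29 of the 32 were lower with FGF2 (55.7% of the 14425 probes tested that were likewise detected on both -GFs arrays), with a median of -0.50 log2 units, 12 were lower at an adjusted p under 0.1 (37.5%, against 5.64% of the 14425) and 4 were called (12.5%, against 1.25%). None was higher at that adjusted p. With BMP4 their median was -0.05 and 0 had an adjusted p under 0.1. The 32 held no probe of FAM110A, HDAC11, BCL7A, AMPD3 or AXIN2, the members called lower, so the falls of these were read on the member probe alone.

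The genes named next were chosen after their values had been seen. The 4 called probes were those of BCL9L (4878.5 and 5074.6 in -GFs medium, 1788.6 and 1734.5 with FGF2, 4398.7 and 5135.7 with BMP4), TCEA3, MAPK1IP1 and SLC44A2, a choline transporter. Their log2 changes with FGF2 were -1.41 (SE 0.15), -1.23 (SE 0.14), -1.24 (SE 0.18) and -1.05 (SE 0.20). A CITED2 probe went from 4268.7 and 3078.4 to 1716.3 and 1688.2 with FGF2 (log2 change -1.0, SE 0.19, adjusted p 0.0349 in limma) and was at 3735.7 and 3272.0 with BMP4. Further probes of CITED2 and BCL9L (listed as BC003321), detected on both -GFs arrays, changed by -0.49 (SE 0.16) and -0.30 (SE 0.14) and did not pass the test. For these genes the member probe was under the limit with FGF2 while another probe of the gene was detected on both FGF2 arrays at a lower level than in -GFs medium.

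Other genes had a further probe that differed less and did not pass the test. The third DAPK1 probe, which is no member, gave 226.7 and 192.7 in -GFs medium and 196.9 and 196.1 with FGF2 (-0.06, SE 0.16) and was detected on all 4 of these arrays. A PBX2 probe changed by -0.12 (SE 0.14) and its other one by -0.34 (SE 0.19). ADAR had 3 further probes detected on both -GFs arrays, with log2 changes of 0.24 (SE 0.22), 0.14 (SE 0.22) and -0.33 (SE 0.14). SPC24 gave 525.5 and 634.9 in -GFs medium and 610.7 and 563.6 with FGF2 on its other probe (0.12, SE 0.21), and the UBA1 probe gave 3639.6 and 3998.1, then 3036.3 and 2914.0 (-0.27, SE 0.17). The probes of a gene can lie on different transcript forms, which was not tested. For 40 of the 80 other probes neither -GFs array gave detection, so they do not bear on the fall.

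**Figure D4:**
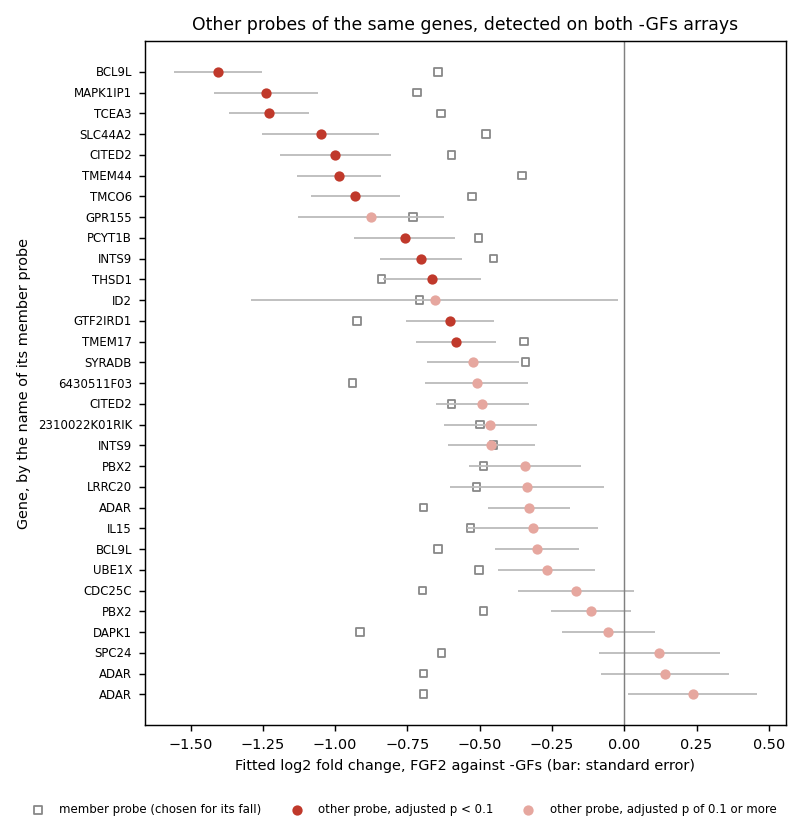
Fitted log2 fold change, FGF2 against -GFs, of 31 of the 32 other probes of member genes that were detected on both -GFs arrays (filled circles with the standard error, darker at an adjusted p under 0.1), with the member probe of the same gene as an open square. Of the 31 drawn, 28 lie below 0, from -1.41 for BCL9L, and the 2 ADAR probes and the SPC24 probe lie above 0 (0.24, 0.14 and 0.12).

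Gene lists of the pathways around the members were read on the same fit, with 1 probe per gene. Of 20 measured FOXO target and growth factor withdrawal genes, 4 were called lower (1.12% of all probes tested were) and 0 higher with FGF2, with a median of -0.46, and CITED2 and FBXO32 of that list have member probes. The 4 were PIK3IP1, SESN1, CCNG2 and TXNIP, from -1.64 to -1.12, and all 4 remained detected. With FGF2 16 of the 20 had a negative log2 change, against 55.7% of the probes tested that were detected on both -GFs arrays. FBXO32 was read on its member probe, so its sign was set by the rule, and CITED2 on another probe. The other way went GADD45A (0.82, adjusted p 0.0429 in limma), which missed the call by its size, and SOD2, RICTOR and BCL6 (0.61, 0.34 and 0.31). With BMP4 0 of the 20 were called and the median was -0.15. Among 12 WNT receptors, antagonists and feedback genes, 2 were called lower, FZD2 (-1.82), a WNT receptor, and AXIN2 (-1.02), read on the member probe that the rule chose. Among 16 cell cycle inhibitors and antiproliferative genes 2 were called lower, MXD4 (listed as 2810410A03RIK, -1.25) and CCNG2 (-1.25), and among 27 receptor kinases 1 was. Of 12 clock genes DBP was called lower (-2.49) and BHLHB2 higher (2.49), and of 8 NOTCH pathway genes 0 were called. None of the clock, cell cycle, receptor kinase or NOTCH genes was a member.

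The lists that mark the activity of the factors stood as follows. Of 13 measured ERK feedback and immediate early genes, 11 were called higher and 0 lower with FGF2 (median 2.0), and 0 with BMP4 (median -0.04). EGR1 gave 1192.1 and 1225.5 in -GFs medium, 20403.6 and 19567.7 with FGF2 and 719.6 and 1798.7 with BMP4. Of 7 BMP-SMAD target genes, all 7 had a positive log2 difference with BMP4 (median 1.51) and 1, ID1, was called higher (2.77). With FGF2 0 of the 7 were called, and 4 had a negative log2 difference. Called shares over all probes were 2.1% higher and 1.12% lower with FGF2 and 0.00621% higher with BMP4.

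**Figure D5:**
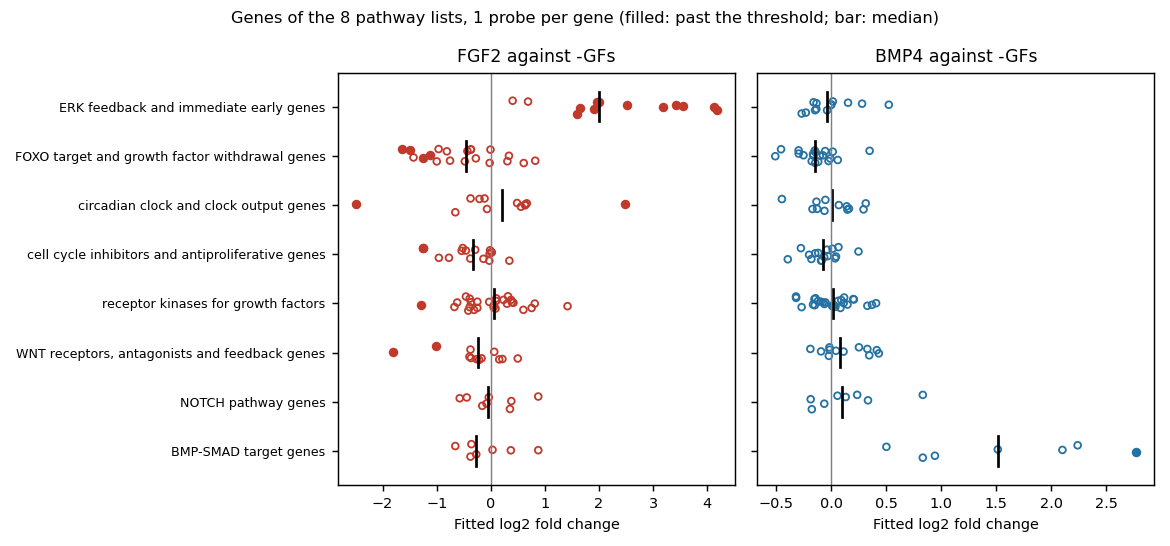
Fitted log2 fold change of the measured genes of the 8 pathway lists, for FGF2 against -GFs on the left and BMP4 against -GFs on the right (1 point per gene, filled where called, bar at the median of the list; the axes of the panels differ). The ERK feedback list has a median of 2.0 with FGF2 and the FOXO target list one of -0.46, while with BMP4 the BMP-SMAD list alone is far from 0, with a median of 1.51.

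Promoters of the members were searched for short motifs of the factors that act downstream of these pathways. RefSeq promoters (GRCm38.p6, 250 bases before to 50 after a transcript start) were at hand for 42 of the member genes, 62 promoters in all, and for 6161 genes (7938 promoters) with a retained probe. A motif was sought on both strands. The E-box CACGTG was in 8 of the 62 (12.9%, against 10.1% of all), those of Acot11, Ampd3, Brdt, Cited2, Gng7, Rap1gap and Uba1. The AP-1 motif TGANTCA was in 4 (6.45%, against 5.32%), the FOXO motif GTAAACA in 1 (1.61%, against 2.51%), that of Gper1, and the cyclic AMP response element TGACGTCA in 1 (1.61%, against 2.99%). The ETS motif CCGGAAGT was in 1 (1.61%, against 7.99%), that of Fam110a, the EGR motif GCGGGGGCG in 2 (3.23%, against 5.51%) and TATAAA in 4 (6.45%, against 7.28%). The D-box motifs TTATGTAA and TTACGTAA were in none (0.529% and 0.164% of all). A match of letters is a description and not a binding site.

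The 250 bases before the start are printed for 4 of the named members, as examples, and show the base composition of these windows and the surroundings of the E-box. For Ampd3 the window printed is the 1 of 3 that holds the E-box. The 4 members are AMPD3 and CITED2, with the E-box in capitals, AXIN2, and ID2. None of the motifs was found in the windows of AXIN2 and ID2. The 4 windows lie at chr7:110772354-110772603 (plus strand, 1 of 3 Ampd3 promoters), chr10:17722978-17723227 (plus strand), chr11:108920099-108920348 (plus strand) and chr12:25096093-25096342 (minus strand) of GRCm38.p6, and are given 5′ to 3′. The E-box of Ampd3 begins 78 bases and that of Cited2 153 bases before the start. The G and C content is 49.2% for Ampd3, 66.8% for Cited2, 69.2% for Axin2 and 62.8% for Id2.
Ampd3: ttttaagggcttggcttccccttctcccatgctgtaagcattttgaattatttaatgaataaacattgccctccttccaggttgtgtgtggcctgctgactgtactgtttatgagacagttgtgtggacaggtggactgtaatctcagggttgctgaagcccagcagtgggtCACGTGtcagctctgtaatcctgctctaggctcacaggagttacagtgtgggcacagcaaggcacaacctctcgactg
Cited2: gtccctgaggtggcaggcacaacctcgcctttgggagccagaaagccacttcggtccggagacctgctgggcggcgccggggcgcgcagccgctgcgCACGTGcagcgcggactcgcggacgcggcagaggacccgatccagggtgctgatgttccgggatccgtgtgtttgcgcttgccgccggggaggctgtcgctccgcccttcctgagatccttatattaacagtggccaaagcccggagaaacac
Axin2: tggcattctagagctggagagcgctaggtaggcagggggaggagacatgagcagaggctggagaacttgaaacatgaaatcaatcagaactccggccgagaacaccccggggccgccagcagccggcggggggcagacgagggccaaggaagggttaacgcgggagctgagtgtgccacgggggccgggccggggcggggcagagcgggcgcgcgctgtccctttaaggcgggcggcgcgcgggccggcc
Id2: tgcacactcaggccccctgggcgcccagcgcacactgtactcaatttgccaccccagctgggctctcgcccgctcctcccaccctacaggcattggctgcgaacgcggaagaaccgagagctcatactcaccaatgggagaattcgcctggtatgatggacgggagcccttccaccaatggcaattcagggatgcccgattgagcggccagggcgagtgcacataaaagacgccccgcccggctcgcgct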

How the data were processed

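Pure PA6 cultures were analysed here, in 3 groups of 2 replicates, each on an array of its own and grouped by its label. The authors deposited intensities (mean bead brightness per probe, without normalization between arrays) and detection p-values, and the labels name GenomeStudio 2011.01. They came with 9 columns without a heading and 6 leftover lines, left out here. Genes carry the array's names, matched to RefSeq.

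From the intensities, cubic spline normalization (452 quantiles) and log2 values were computed in R 4.3.3. The 16111 probes detected (p under 0.05) throughout at least 1 group were kept, and limma 3.58.1 (lmFit and eBayes) was fitted per probe on the 3 groups with 3 residual degrees of freedom. Adjusted p-values are Benjamini-Hochberg over all probes retained. A call is an adjusted p under 0.1 and a change beyond 1 log2 unit. The procedure was tested on simulated data.

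The rule, the members and the gene lists were chosen with earlier results of these data known. Genes named are the 15 with the largest limits, those on a list, those nearest each threshold (with ties) and those with 2 probes, and others were named after their values were seen. By the labels a replicate number marks wells treated side by side, and arrays of 1 number deviated together from their group means (correlation over 16111 probes of 0.588 between -GFs and FGF2, 0.727 between -GFs and BMP4 and 0.564 between FGF2 and BMP4). The labels call the replicates biological without saying how the cultures were separated, so p-values measure the spread between these arrays, which may be partly technical. Alternatives were quantile normalization, neqc, median scaling, other detection limits, 1 probe per gene, the replicate block, the methods' t-test and leaving out each array. 1 member is counted but not reported here by name. The number of arrays, 2 per group, limits the precision.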

Additional observations from a re-analysis of the deposited data

How the results depend on the processing

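The number of members rests on the thresholds: it was 380 with a detection p under 0.05 on the -GFs arrays, 20 with a p of at least 0.1 on the FGF2 arrays, and 108 to 292 with 1 array left out (292 without -GFs replicate 2). Members detected on both BMP4 arrays were then 164, 17 and 59 to 140, and 23 at a p under 0.01. Those on neither were 79, 0 and 1 to 62, and 13 at a p under 0.01. Members called lower with FGF2 were 52 with neqc, 37 with no threshold on the fold and 0 by the t-test of the methods once adjusted (5 unadjusted). They were 0 to 8 with 1 array left out, with 0 without either FGF2 array, where the lone array is assumed to vary like the other groups, and 8 without -GFs replicate 2. Their median was -1.5 with neqc, -0.69 with median scaling, -0.70 with 1 probe per gene (42 members) and -0.65 to -0.60 with 1 array left out. For BMP4 against -GFs 0 were called lower under every alternative run, and the median was -0.29 with neqc, -0.16 with median scaling and -0.19 to -0.041 with 1 array left out (-0.041 without -GFs replicate 2). For FGF2 against BMP4 29 were called with neqc, 20 with no threshold on the fold, 0 by the adjusted t-test and 1 to 4 with 1 array left out (1 without either FGF2 array). The median was -1.23 with neqc, -0.56 with 1 probe per gene and -0.56 to -0.48 with 1 array left out. The median limit of the fall was 2.08-fold with neqc, 1.14-fold with a detection p of 0.01 behind the limit and 1.30-fold to 1.40-fold with 1 array left out. Why these values moved was not tested. The replicate block changed the call of ID2 with BMP4 and the count at any fold, both given with the results, and left the 5 called members at 5. No called value changed sign. Among the 23 named members, 20 of 230 alternative values for BMP4 against -GFs did, in 11 probes (AXIN2, CXXC6 and both DAPK1 probes among them), to between -0.27 and 0.25, and none was called. At intensities this near the limit of detection, the size of a fall has only a lower limit, read on the arrays that chose the members.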
